A study of Mus musculus with 6 samples.

Results

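Lysyl oxidases and collagen hydroxylases are the enzymes that modify collagen before and after its secretion. The 10 genes described here were chosen by name: Lox, Loxl1, Loxl2, Loxl3, Loxl4, Plod1, Plod2, Plod3, P4ha1 and P4ha2. Of these, 8 had a probe set named for them among the 19505 genes compared, 1 probe set each, and Loxl2 and Plod3 were not analysed here. The samples were salivary glands of mouse embryos at a stage written as T13, kept in culture for 72 hours, on 3 arrays from glands that received nothing (controls 1 to 3) and 3 arrays from glands given TGF-β1 (TGF-β1 1 to 3). Each array was made from 6 µg of total RNA of whole glands, so every value sums over all cell types of the gland. The sources used here name neither the mouse strain nor the gland type, nor how much TGF-β1 was added. They do not say either that replicates were separate cultures or animals; the p-values then speak of the spread among these samples alone, and that spread may be technical.

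Collagen chains are hydroxylated in the endoplasmic reticulum. Prolyl 4-hydroxylases, whose catalytic α subunits are encoded by P4ha1 and P4ha2, act on prolines that hold the triple helix together, and the lysyl hydroxylases of the Plod genes act on lysines. Outside the cell, lysyl oxidases convert lysines and hydroxylysines to the aldehydes from which the covalent cross-links of collagen and elastin form. TGF-β is known as an inducer of several of these genes in fibroblasts, and the prolyl hydroxylases and Plod2 are known to be induced when oxygen is low.

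Control 3 stood apart from all other arrays, and TGF-β1 3 did so to a lesser degree. Over all genes, control 3 correlated with the other arrays at 0.550 to 0.601, its interquartile range was 2.05 on the log2 scale against 3.17 to 3.26 elsewhere, and 7 of 7 housekeeping genes had their lowest value there. TGF-β1 3 correlated with no array above 0.953, where TGF-β1 1 and 2 correlated at 0.990. The members are therefore given with all 6 arrays and without those that stand apart. None of the 12 epithelium markers and none of the 10 mesenchyme markers lay under the lower quartile of its array in the 5 arrays other than control 3; in control 3, 3 and 1 of them did. Of the 7 measured salivary gland markers, 2 lay under that quartile in control 2 and 1 in control 3.

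P4ha1 was the one member of the 8 that passed a test between the groups, as lower, and it passed only in fits with array weights. In the fit with array weights it was lower with TGF-β1 by 1.75 times, and 6.88% of all genes passed there; Plod2, Loxl1 and the other 5 did not pass, and no member rose. In the fit of all 6 arrays without weights, 0 of the 8 passed (0.0% of all genes), and the values of Loxl1, Loxl3 and Plod2 pointed the other way; control 3 lay far under controls 1 and 2 in these 3 genes. In such bulk samples fewer cells of a type and less RNA per cell cannot be told apart.

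The plot of values by array shows each of the 8 genes.

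**Figure D1:**
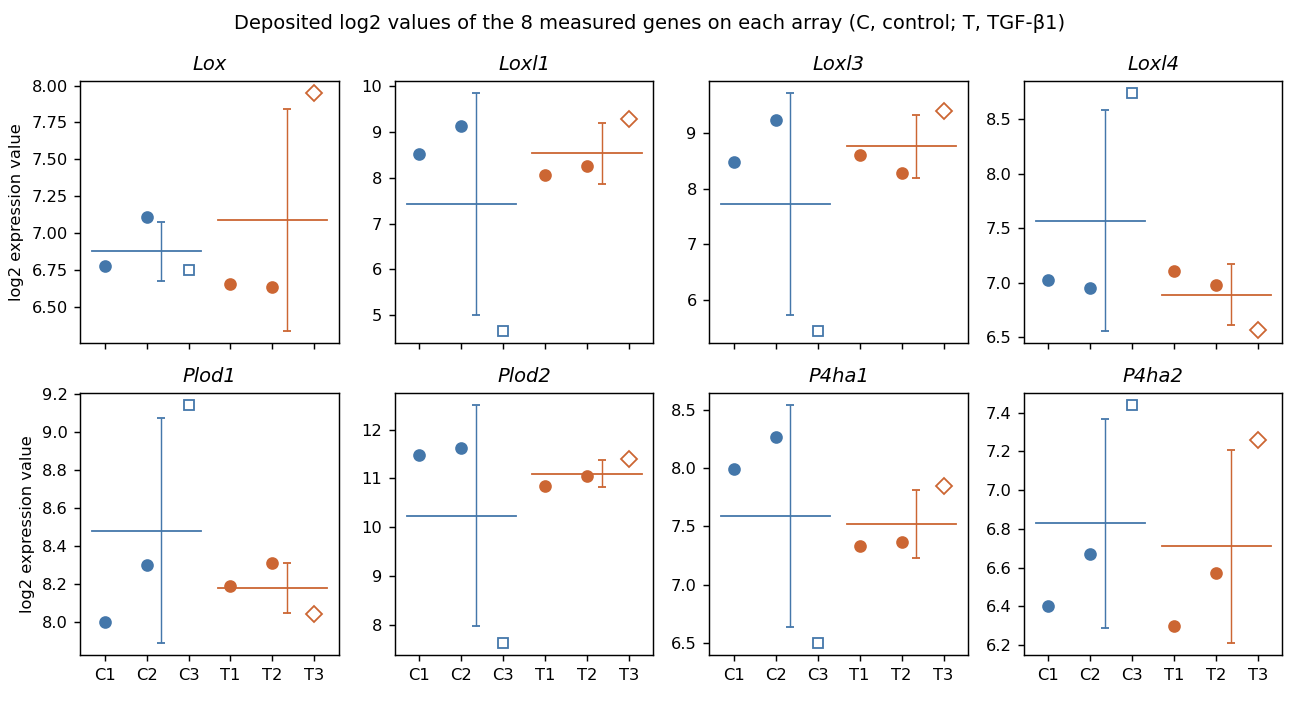
Deposited log2 value (y axis, a separate scale in each panel) of the 8 measured genes on controls 1 to 3 (C, blue) and TGF-β1 arrays 1 to 3 (T, orange); open symbols are control 3 and TGF-β1 3, horizontal lines are group means and bars the SD (n = 3). Control 3 lies at the bottom of the panels of Loxl1, Loxl3, Plod2 and P4ha1 and at the top of those of Loxl4, Plod1 and P4ha2.

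The prolyl 4-hydroxylase α subunits come first. P4ha1 (Entrez gene 18451) was at 7.99, 8.27 and 6.50 in controls 1 to 3 and at 7.33, 7.37 and 7.85 in TGF-β1 1 to 3 (log2 value). All 3 TGF-β1 arrays lay below controls 1 and 2 and above control 3, so the groups overlapped over 6 arrays and did not overlap without control 3. The group means were 7.59 ± 0.95 and 7.52 ± 0.29 (SD, n = 3 each), a difference of -0.07 ± 0.51 (SE; limma adjusted p = 0.955). Array weights scale each array by how well it fits its group over all genes, here 0.0338 for control 3, 0.398 for TGF-β1 3 and 1.65 to 4.52 for the others. With them P4ha1 fell by 0.81 ± 0.16 (SE; limma adjusted p = 0.0103; 95% interval -1.16 to -0.47). Without control 3 and without weights the difference was -0.61 ± 0.22 (limma adjusted p = 0.593), and with weights -0.76 ± 0.16 (limma adjusted p = 0.0488). Without control 3 and TGF-β1 3 it was -0.78 ± 0.16, and the limma adjusted p was 0.0559, just past the threshold of 0.05. The call of P4ha1 therefore rests on array weights, while its value without control 3 lay between -0.78 and -0.61 in 3 fits.

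P4ha2 (Entrez gene 18452), the other α subunit, was at 6.40, 6.67 and 7.44 in the controls and at 6.30, 6.57 and 7.26 in the TGF-β1 arrays. Arrays numbered 3 were high in both groups and the groups overlapped throughout. The means were 6.83 ± 0.54 and 6.71 ± 0.50 (SD, n = 3 each), a difference of -0.12 ± 0.42 (SE; limma adjusted p = 0.898; 95% interval -1.12 to 0.88). With array weights it was -0.15 ± 0.17 (95% interval -0.54 to 0.23), and whether it differed from P4ha1 was not tested. P4hb encodes the β subunit of the enzyme, which is itself protein disulfide isomerase. P4hb was at 12.06, 12.03 and 7.61 in the controls and at 12.39, 12.23 and 12.65 in the TGF-β1 arrays. Its weighted difference was 0.34 (limma adjusted p = 0.371), and without control 3 and TGF-β1 3 it was 0.26 (limma adjusted p = 0.431). P4ha3, the third α subunit, differed by 0.17 with weights (limma adjusted p = 0.621) and by 0.07 without those 2 arrays (0.890).

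Promoter sequence from RefSeq (GRCm38.p6) was available here for 5 of the 10 genes: P4ha1, P4ha2, Plod1, Plod3 and Loxl4. Of these, the prolyl hydroxylases are known to be induced when oxygen is low. The 250 bases before each start were therefore searched on both strands for ACGTG, a form of the core of the hypoxia response element. The letters were found in 3 of the 5 genes, P4ha1, P4ha2 and Plod3, and in 16.6% of the 32851 windows of that length in the table. The 30 bases around the match are shown for the pair of α subunits, P4ha1, which passed only with array weights, and P4ha2. The match is in capitals, and that of P4ha1 is on the opposite strand and shows as its reverse complement.
P4ha1 (chr10:59323266-59323295, plus strand): ggtgtgacagagcgCACGTagcgagggctg
P4ha2 (chr11:54100834-54100863, plus strand): tgtgcatcgcatACGTGcagcgcgtggcgg
In P4ha1 the match begins 16 bases before the start used in the table and lies inside the annotated gene, which has a further start upstream; in P4ha2 it begins 78 bases before the start. Such a match is a description of letters and does not show binding.

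Among the lysyl hydroxylases, Plod2 and Plod1 differed in where control 3 lay. Plod2 (Entrez gene 26432), which hydroxylates lysines of the collagen telopeptides, was at 11.47, 11.62 and 7.64 in the controls and at 10.85, 11.06 and 11.39 in the TGF-β1 arrays. The TGF-β1 arrays lay below controls 1 and 2, by little for TGF-β1 3, and far above control 3. The means were 10.24 ± 2.26 and 11.10 ± 0.27 (SD, n = 3 each), a difference of 0.85 ± 1.02 (SE; limma adjusted p = 0.776). Without control 3 the sign turned, to -0.45 ± 0.21 (limma adjusted p = 0.733), and with array weights on all 6 arrays the difference was -0.61 ± 0.19 (limma adjusted p = 0.0801; 95% interval -1.03 to -0.20). Without control 3 and TGF-β1 3 it was -0.60 ± 0.16 (limma adjusted p = 0.104). Plod2 passed in none of these fits.

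Plod1 (Entrez gene 18822), which acts on lysines of the helical part, was at 8.0, 8.30 and 9.14 in the controls and at 8.19, 8.31 and 8.04 in the TGF-β1 arrays. TGF-β1 1 and 3 lay between controls 1 and 2, TGF-β1 2 was level with control 2, and control 3 was the highest array. The difference was -0.30 ± 0.38 (SE; limma adjusted p = 0.778). Without control 3 it was 0.03 ± 0.18, with a 95% interval of -0.41 to 0.47, and no direction could be told.

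The 4 measured lysyl oxidases did not pass in any of the fits. Lox (Entrez gene 16948), the founding member of the family, was at 6.78, 7.11 and 6.75 in the controls and at 6.66, 6.64 and 7.95 in the TGF-β1 arrays. TGF-β1 1 and 2 lay just under the controls and TGF-β1 3 was the highest of the 6 arrays, 1.30 above the mean of the other TGF-β1 arrays. Control 3 was close to control 1 here. The means were 6.88 ± 0.20 and 7.09 ± 0.75 (SD, n = 3 each), a difference of 0.21 ± 0.44 (SE; limma adjusted p = 0.836), which was -0.23 without TGF-β1 3 and -0.29 ± 0.19 with array weights (limma adjusted p = 0.459). For Lox it was thus TGF-β1 3, not control 3, that set the sign.

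Loxl1 (Entrez gene 16949), known for its part in elastic fibres, was at 8.52, 9.13 and 4.66 in the controls and at 8.06, 8.25 and 9.28 in the TGF-β1 arrays. TGF-β1 1 and 2 lay below controls 1 and 2, TGF-β1 3 lay above them, and control 3 was by far the lowest, under its array's lower quartile of 5.79. The means were 7.43 ± 2.42 and 8.53 ± 0.66 (SD, n = 3 each), a difference of 1.10 ± 1.12 (SE; limma adjusted p = 0.776). Without control 3 it turned negative, at -0.29 ± 0.41 (limma adjusted p = 0.941). With array weights on all 6 arrays it was -0.75 ± 0.25 (limma adjusted p = 0.0992; 95% interval -1.29 to -0.21). Without control 3 and TGF-β1 3 it was -0.67 ± 0.22 (limma adjusted p = 0.179).

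Loxl3 (Entrez gene 16950), an oxidase with scavenger receptor domains, was at 8.48, 9.23 and 5.44 in the controls and at 8.61, 8.28 and 9.40 in the TGF-β1 arrays. The TGF-β1 arrays spread on both sides of controls 1 and 2, and control 3 was again far below, under its array's lower quartile. The difference was 1.05 ± 0.94 (SE; limma adjusted p = 0.776) with all arrays, -0.09 ± 0.39 without control 3 (95% interval -1.03 to 0.86) and -0.46 ± 0.24 with array weights (limma adjusted p = 0.331).

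Loxl4 (Entrez gene 67573), another such oxidase, was at 7.03, 6.95 and 8.74 in the controls and at 7.11, 6.98 and 6.57 in the TGF-β1 arrays. Apart from control 3, which was high, and TGF-β1 3, which was low, the arrays lay between 6.95 and 7.11. The difference was -0.69 ± 0.53 (SE; limma adjusted p = 0.776) with all arrays, -0.11 ± 0.21 without control 3 and 0.05 ± 0.15 with array weights (95% interval -0.28 to 0.38).

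**Figure D2:**
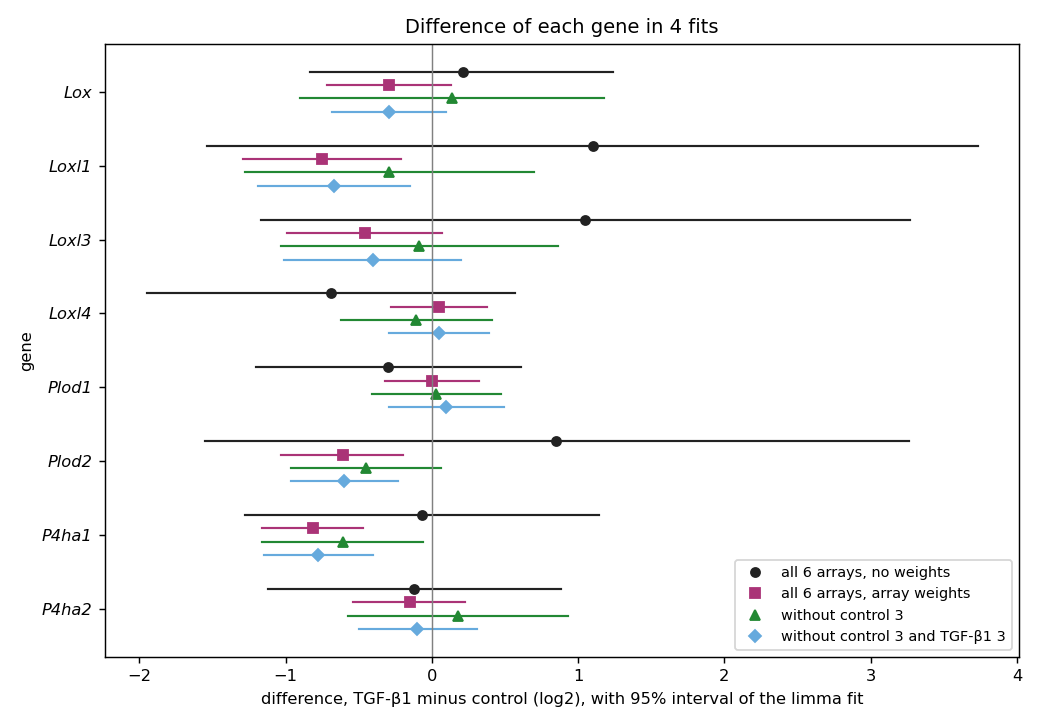
Difference between TGF-β1 and control arrays on the log2 scale (x axis) for the 8 genes (y axis) in 4 limma fits; points are estimates and lines their 95% intervals, not adjusted for the number of genes. The intervals of the fit of all 6 arrays without weights (black) all include 0, while that of P4ha1 lies below 0 in the other 3 fits, with estimates from -0.81 to -0.61.

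The counts of members that passed are read here against those over all genes. Without weights limma called 0 of 8 members and 0 of 19505 genes (0.0%), with 0 of 8 members and 1.99% of all genes at an unadjusted p under 0.05. With array weights 1 of 8 members passed, P4ha1, and 6.88% of all genes did, 3.44% as lower. At an unadjusted p under 0.05 there were 3 of 8 members (P4ha1, Plod2 and Loxl1) and 20.5% of all genes. In that fit 7 of 8 members had a value below 0, Plod1 by almost nothing, against 49.1% of all genes, and their median difference was -0.38 against 0.01. Without weights 4 of 8 were below 0, against 59.5% of all genes, and the medians were 0.07 and -0.14. Without control 3, 0 of 8 members and 0.0% of all genes passed, 1 member had an unadjusted p under 0.05 (7.62% of all genes), and the median of the members was -0.10. With weights but without control 3, P4ha1 was again the 1 member of 8 that passed (2.79% of all genes), and without control 3 and TGF-β1 3 it was 0 of 8 (2.59%). Groups did not overlap for 0 of 8 members over 6 arrays (11.6% of all genes) and for 2 of 8 without control 3, P4ha1 and Plod2, both lower with TGF-β1 (25.2% of all genes in either direction, 12.3% as lower). With 8 members, 1 gene more or less moves each of these shares by a large step.

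The members also shared how they varied inside each group. Control 2 was above control 1 in 7 of 8 members, Loxl4 being the exception, and in 52.4% of all genes. TGF-β1 3 was above both other TGF-β1 arrays in 6 of 8 members (40.3% of all genes) and below both in Loxl4 and Plod1. Control 3 was the lowest array in 4 members (32.4% of all genes) and the highest in 3 (51.9%). Several other lists had this order inside the groups. Control 2 was above control 1 in 10 of 10 mesenchyme markers, 12 of 16 genes of collagen folding, 11 of 15 oxygen-sensing genes and 5 of 7 macrophage markers. TGF-β1 3 was above the other TGF-β1 arrays in 7, 13, 12 and 6 of them. In 5 neuron and glia markers these counts were 5 and 3, in 7 skeletal muscle markers 5 and 4, and in 7 endothelium markers 4 and 5. Other lists had the order only in part. Among 12 substrates and partners of lysyl oxidases, control 2 was above control 1 in 9, while TGF-β1 3 was above both other TGF-β1 arrays in 4 and below both in 8. Among 7 genes of propeptide processing these counts were 6, 3 and 2. Control 2 was above control 1 in 2 of 12 epithelium markers and 0 of 7 salivary gland markers, while TGF-β1 3 was above both other TGF-β1 arrays in 8 and 5 of them.

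Profiles were compared by the root mean square difference of log2 values over the 6 arrays, each gene centred on its own mean, as a description that the position of control 3 dominates. Loxl1 was within 0.30 of both Loxl3 and Plod2, and these 3 were all low in control 3, while Loxl1 and Loxl4 were the farthest apart, at 2.24. The genes nearest to P4ha1 among all genes were Fndc3b, a membrane protein with fibronectin repeats, and Mfap4, a microfibril-associated matrix protein, at 0.07 each. Nearest to Plod2 were Tmem184c at 0.08 and Pvr, a cell adhesion receptor, at 0.10, and nearest to Lox were Timm10, a mitochondrial import protein, and Cntfr, a cytokine receptor, at 0.07 each. Loxl1 lay nearest to Dpysl3 (0.11) and Lgals8 (0.12), Loxl3 to Bex3 (0.12) and B3galt1 (0.18), and Loxl4 to Gltpd2 and Sprr2j-ps (0.04 each). Plod1 lay nearest to Ryr2 and Mymx (0.03 each) and P4ha2 to Ndufaf6 and Themis2 (0.08 each).

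Counts of other genes of the collagen pathway are read against the 6.88% of all genes that passed with array weights. Among 16 measured genes of collagen folding and modification, array weights gave 1 that rose, 1 that fell and 14 that did not pass, with a median difference of -0.17. Colgalt2, which adds galactose to hydroxylysine, was at 5.66, 5.50 and 6.47 in the controls and at 6.91, 6.95 and 5.50 in the TGF-β1 arrays. TGF-β1 1 and 2 were the highest arrays, control 3 came next, and TGF-β1 3 was at the level of control 2. With array weights Colgalt2 rose by 1.30 (limma adjusted p = 0.00314; 0.0143 without control 3 and TGF-β1 3). P3h2, a prolyl 3-hydroxylase, fell by 0.77 (limma adjusted p = 0.0324; 0.103 without control 3 and TGF-β1 3). Serpinh1, the collagen chaperone HSP47, had a weighted difference of -0.47 (limma adjusted p = 0.197; -0.51 without control 3 and TGF-β1 3).

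Of the 7 genes of propeptide processing, which trim procollagen outside the cell, 0 passed in limma with array weights (6.88% of all genes). At an unadjusted p under 0.05 there were 2 of the 7 (20.5% of all genes), and their median was -0.33. Adamts14, a procollagen protease, had the smallest p of the unweighted fit and a weighted difference of -0.33 (limma adjusted p = 0.553; -0.30 without control 3 and TGF-β1 3). Bmp1, the C-proteinase that also activates lysyl oxidase, differed by -0.34 (limma adjusted p = 0.271; -0.32 without those 2 arrays). Mia3, which loads procollagen for export and belongs to the folding list, differed by 0.37 (limma adjusted p = 0.204; 0.34 without them). Of 12 substrates and partners of lysyl oxidases, 0 rose and 1 fell with array weights, Fn1, by 0.62 (limma adjusted p = 0.0276; 0.151 without control 3 and TGF-β1 3), with a list median of -0.11. Eln, the elastin gene, differed by -0.13 (limma adjusted p = 0.788), Col3a1 by -0.27 (0.407) and Atp7a, the pump that supplies copper to lysyl oxidases, by -0.08 (0.817), and without control 3 and TGF-β1 3 they differed by 0.07, -0.22 and -0.04. With array weights 4 of the 12 were above 0 and 8 below. Highest were Fmod and Postn, at 0.47 each (limma adjusted p = 0.0921 and 0.317). Outside control 3, Fmod lay under the lower quartile of each array. In these 3 lists 0 genes passed in limma without weights over 6 arrays (0.0% of all genes), and 0 had an unadjusted p under 0.05 (1.99%).

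Oxygen-sensing genes passed in both directions with array weights, as did genes at large, of which 672 rose and 670 fell. In limma without weights 0 of 15 passed over 6 arrays, and 0 passed without control 3 (0.0% of all genes in both). Array weights gave 1 of 15 that rose, 2 that fell and 12 that did not pass, with a median of -0.21, and 6.88% of all genes passed there. At an unadjusted p under 0.05 there were 8 of 15, against 20.5% of all genes. Pfkfb3, a regulator of glycolysis, was at 7.49, 7.80 and 7.23 in the controls and at 6.04, 5.96 and 6.46 in the TGF-β1 arrays, with groups that did not overlap, and fell by 1.68 (limma adjusted p = 0.000189; 0.0124 without control 3 and TGF-β1 3). Ndrg1, a hypoxia-induced gene, fell by 1.39 (limma adjusted p = 0.0111; 0.0293 without control 3 and TGF-β1 3), although TGF-β1 3, at 10.19, was its highest array. Egln3, an oxygen-sensing prolyl hydroxylase of another family, rose by 1.19 (limma adjusted p = 0.0064; 0.0945 without control 3 and TGF-β1 3). Ankrd37, a known target of this pathway, was at 10.36 in TGF-β1 3 and at 7.12 to 7.95 in the other 5 arrays, and the list median was 0.42 in TGF-β1 3 against -0.18 and -0.26 in TGF-β1 1 and 2.

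**Figure D3:**
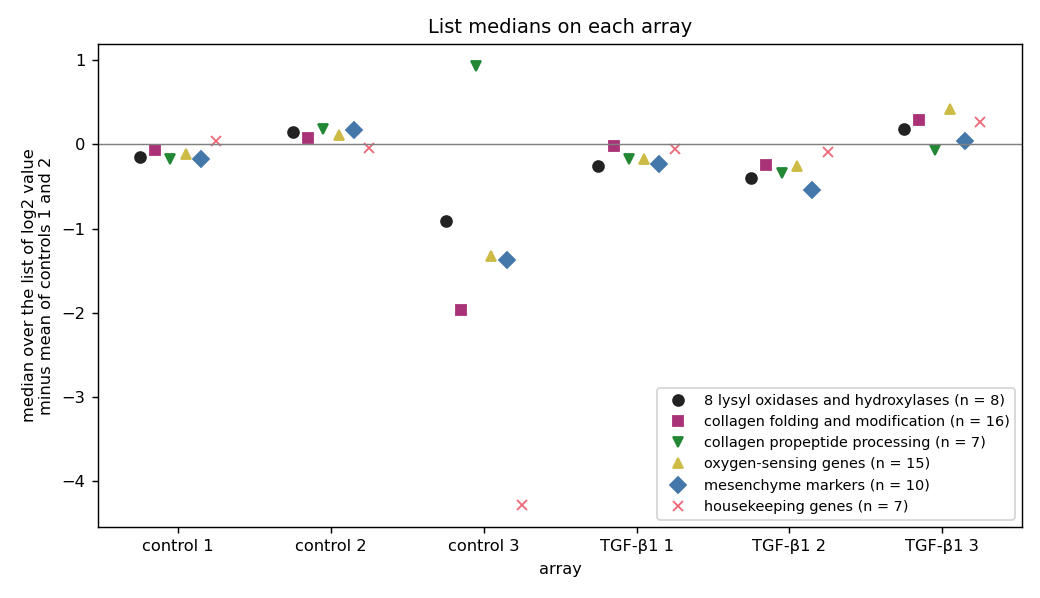
Median over each gene list (y axis, log2 values relative to the average of controls 1 and 2) on each array (x axis) for the 8 measured members, 3 pathway lists, the mesenchyme markers and the housekeeping genes; controls 1 and 2 mirror each other by construction. The members are at -0.91 in control 3, -0.26 and -0.40 in TGF-β1 1 and 2 and 0.18 in TGF-β1 3.

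Markers of the cell types that a gland can hold were read beside the members. In limma without weights 0 of these markers passed over 6 arrays, and 0 passed without control 3 (0.0% of all genes in both). With array weights 6.88% of all genes passed, and 20.5% had an unadjusted p under 0.05. Without control 3 and TGF-β1 3, 2.59% of all genes passed. With array weights 8 of 10 mesenchyme markers had a value below 0 (49.1% of all genes), with a median of -0.44. Of them 0 rose and 1 fell, Prrx1, a transcription factor of mesenchyme, by 1.03 (limma adjusted p = 0.0179, and 0.0712 without control 3 and TGF-β1 3). Without weights over 6 arrays the direction turned. There 3 of the 10 were below 0 (59.5% of all genes), the median was 0.26 and Prrx1 was at 0.76 (limma adjusted p = 0.798). The summed log2 value of the mesenchyme markers was 85.7 and 90.8 in controls 1 and 2, 69.6 in control 3, and with TGF-β1 between 83.9 and 89.7. Of 12 epithelium markers 2 rose with array weights, Cldn3 and Epcam, and 0 fell. Without control 3 and TGF-β1 3 the limma adjusted p of these 2 genes were 0.0301 and 0.124. With array weights 8 of the 12 had a value above 0 and 4 below, the keratins Krt5, Krt7, Krt14 and Krt19, and the median was 0.46. Without weights over 6 arrays 12 of the 12 were above 0, with a median of 1.07. The sums were 119.1 and 115.7 in controls 1 and 2, 89.0 in control 3, and with TGF-β1 between 118.3 and 126.9. The part of these markers in the difference of P4ha1 was not tested. The 7 endothelium markers had 1 member that fell with array weights, Kdr (limma adjusted p = 0.0256 without those 2 arrays), and a median of -0.05, with sums of 41.1 to 46.9 in the controls and 39.9 to 44.0 with TGF-β1. The 7 macrophage markers had 0 that passed in limma (2 at an unadjusted p under 0.05) and a median of -0.17, with sums of 44.6 to 47.1 and 43.0 to 50.9. Among 6 cartilage markers 1 rose, Cnmd (limma adjusted p = 0.0192 without control 3 and TGF-β1 3), with a list median of 0.04 and sums of 36.9 to 43.8 and 39.1 to 41.3, and among 7 skeletal muscle markers 0 passed in limma (1 at an unadjusted p under 0.05; median 0.02, sums of 45.0 to 51.2 and 44.4 to 46.5). Of 5 neuron and glia markers 4 rose with array weights, Elavl4, Ret, Stmn2 and Tubb3, of which Ret alone passed without control 3 and TGF-β1 3, and 0 fell (median 0.66, sums of 30.6 to 33.1 and 34.7 to 36.8). The 7 salivary gland markers all rose with array weights and passed as well without control 3 and TGF-β1 3 (median 4.29, sums of 43.9 to 53.0 and 71.1 to 76.1). Without weights 7 of 7 were above 0 over 6 arrays and without control 3. Their smallest limma adjusted p was 0.397 and 0.176 in these 2 fits.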

How the data were processed

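Per the submitters' processing notes, RMA (background subtraction, normalization between arrays, 1 value per probe set) was the authors' tool for the Affymetrix arrays; the sources used here state neither its version nor a genome build. The deposited table holds log2 values, used without filter or rescaling. Precision is limited by the number of arrays, and no measure of background was used. Of 22206 probe sets, 19572 had 1 gene symbol in the platform annotation, 2634 had none here and 0 had several. Every one of the 19572 Entrez identifiers matched the GRCm38.p6 gene table. Where a gene had several probe sets, the one with the highest mean stood for it, which left 19505 genes.

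Groups came from the sample titles. The comparison used limma (version 3.58.1, R 4.3.3; lmFit, eBayes, two-sided) on group alone, with Benjamini-Hochberg adjustment over all genes and a threshold of 0.05; the script was tested on simulated data. A difference is TGF-β1 minus control on the log2 scale. Array weights (arrayWeights) are treated as known, which makes p-values too small, and their estimation on all 6 arrays stopped before reaching its tolerance. The members, lists and fits were chosen with earlier results of these data known. Of the lists, genes are named that passed with array weights, or the 1 of smallest unweighted p, and for each member the 2 genes nearest in profile. P4hb, P4ha3, Serpinh1, Bmp1, Mia3, Eln, Col3a1, Atp7a, Fmod, Postn and Ankrd37 were added after their values were seen. Quantile normalization, median centring, a filter on dim genes, the mean of probe sets, every probe set, a replicate block, a trended robust prior, a threshold of 0.01 and fits with each array left out were the alternatives.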

Additional observations from a re-analysis of the deposited data

How the results depend on the processing

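Without weights, 0 of the 8 members passed at an adjusted p under 0.05 or 0.01, and the count was 0 as well under quantile normalization, median centring, the filter on dim genes, the mean of probe sets, every probe set, the trended robust prior and with each array left out in turn (0 to 0 members). It was 1 with array weights, with all 6 arrays or without control 3, and 0 without control 3 and TGF-β1 3. With the replicate number as a block it was 0, and all 8 differences kept their sign. Deviations of same-numbered arrays from their group means correlated at -0.07, -0.01 and -0.05 over genes. These means include control 3 and TGF-β1 3, which stand apart, so the correlations cannot tell whether same-numbered arrays share more than a number. Signs turned against the unweighted fit of all arrays as follows. With array weights Lox was at -0.29, Loxl1 at -0.75, Loxl3 at -0.46, Loxl4 at 0.05 and Plod2 at -0.61. Without control 3 and with weights Lox was at -0.22, Loxl1 at -0.64, Loxl3 at -0.31, Loxl4 at 0.05, Plod1 at 0.07 and Plod2 at -0.60. Without control 3 and TGF-β1 3 they were at -0.29, -0.67, -0.40, 0.05, 0.10 and -0.60. P4ha1, whose sign did not turn in those fits, was at -0.81, -0.76 and -0.78 in the same order, and at 0.00485 under quantile normalization. With 1 array left out at a time, differences ranged from -0.23 to 0.43 for Lox, -0.29 to 1.94 for Loxl1, -0.09 to 1.80 for Loxl3, -1.0 to -0.11 for Loxl4, -0.54 to 0.03 for Plod1, -0.45 to 1.54 for Plod2, -0.61 to 0.27 for P4ha1 and -0.40 to 0.18 for P4ha2. The reversals of Loxl1, Loxl3, Plod1 and Plod2 in these came without control 3, that of Lox (-0.23) without TGF-β1 3, and those of P4ha2 without control 3 (0.18) or TGF-β1 1 (0.08). P4ha1 turned positive without control 1 (0.13), control 2 (0.27), TGF-β1 1 (0.02) or TGF-β1 2 (0.00593), none with an adjusted p under 0.788.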
